A study of Mus musculus with 4 samples.

Results

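The genes described here are those whose level with 2 compounds together was not the sum of what each compound did alone. RNA came from cultured mouse liver tumour-initiating stem-like cells of strain C57BL/6, given vehicle, all-trans retinoic acid (ATRA) at 5 µg/ml, suberoylanilide hydroxamic acid (SAHA) at 0.5 µg/ml, or the pair at the same doses. Exposure was for 16 hours, and all 4 groups shared a medium with serum, EGF and dexamethasone. For each gene the log2 of FPKM + 1 was taken, where FPKM counts sequenced fragments relative to transcript length and library size. The 2 single differences from vehicle were summed and subtracted from the difference of the combination, which gives the departure from additivity. A departure of 1 is a 2-fold excess on that scale over the level the sum gives, and a departure of -1 a 2-fold shortfall. Of 23359 rows, 8616 averaged 1 FPKM or more across the libraries and were counted. Of these, 404 (4.69%) had a departure of 1 or more and 149 (1.73%) of -1 or less, 553 (6.42%) in all. These 553 genes are the members.

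ATRA is a vitamin A metabolite that binds the retinoic acid receptors, which sit on DNA with retinoid X receptors and hold corepressor complexes containing histone deacetylases until the ligand arrives. SAHA, also called vorinostat, blocks the zinc-dependent histone deacetylases, raises histone acetylation and changes the transcription of many genes in both directions. The pair has long been studied in leukaemia and other tumours because both act on the same corepressor complexes. A departure from additivity on a log scale says only that the 4 values do not follow a product of 2 ratios.

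Each group was 1 library, so no value here has a replicate check, an error or a p-value, and the members were chosen by the values that are described. Total FPKM lay between 258214 and 309001, and 1 FPKM over 1 kilobase stood for an estimated 97.2 to 104 fragments. Genes at 1 FPKM or more numbered 8542 under vehicle, 8388 under ATRA, 7781 under SAHA and 8002 under both. A predicted row, Gm20594, held 33.9% of the summed FPKM under SAHA and 10.3% to 18.0% in the other libraries and was itself a member, at 48087 FPKM under vehicle, 50407 under ATRA, 87588 under SAHA and 31801 under both (-1.53). Its part in the values of other genes was not tested. Vim, a mesenchymal intermediate filament gene, stood at 562, 432, 319 and 362 FPKM in that order, and Alb, the albumin gene, was at most 0.0162 FPKM. All 9 hepatocyte markers were below 1 FPKM in every library, as were all 8 lymphocyte and all 4 erythroid markers. Of 10 macrophage markers 8 were below 1 FPKM everywhere, as were 7 of 9 endothelial markers, with summed levels of 3.42 to 5.51 and 2.32 to 6.89 FPKM. The 5 bile duct markers summed to 340 to 942 FPKM, nearly all of it Spp1, a member described further on. In a single RNA sample, fewer cells of a type and less RNA per cell cannot be told apart.

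The departures were not centred on 0. The median over all counted genes was 0.15, and the middle 90% lay between -0.60 and 0.98. Of the members, 73.1% were positive. When the 3 differences from vehicle were first centred on their medians, 284 genes were positive and 213 negative, so 57.1% were positive. At the marks themselves, Rrs1 at 1.0006 and Med10 at 1.0010 were just inside, while Ift43 at 0.9995 and Srsf11 at 0.9989 were just outside. On the negative side Herc3 at -1.0029 and Klhl2 at -1.0116 were inside, and Ctgf at -0.9981 and Flnc at -0.9945 outside.

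**Figure D1:**
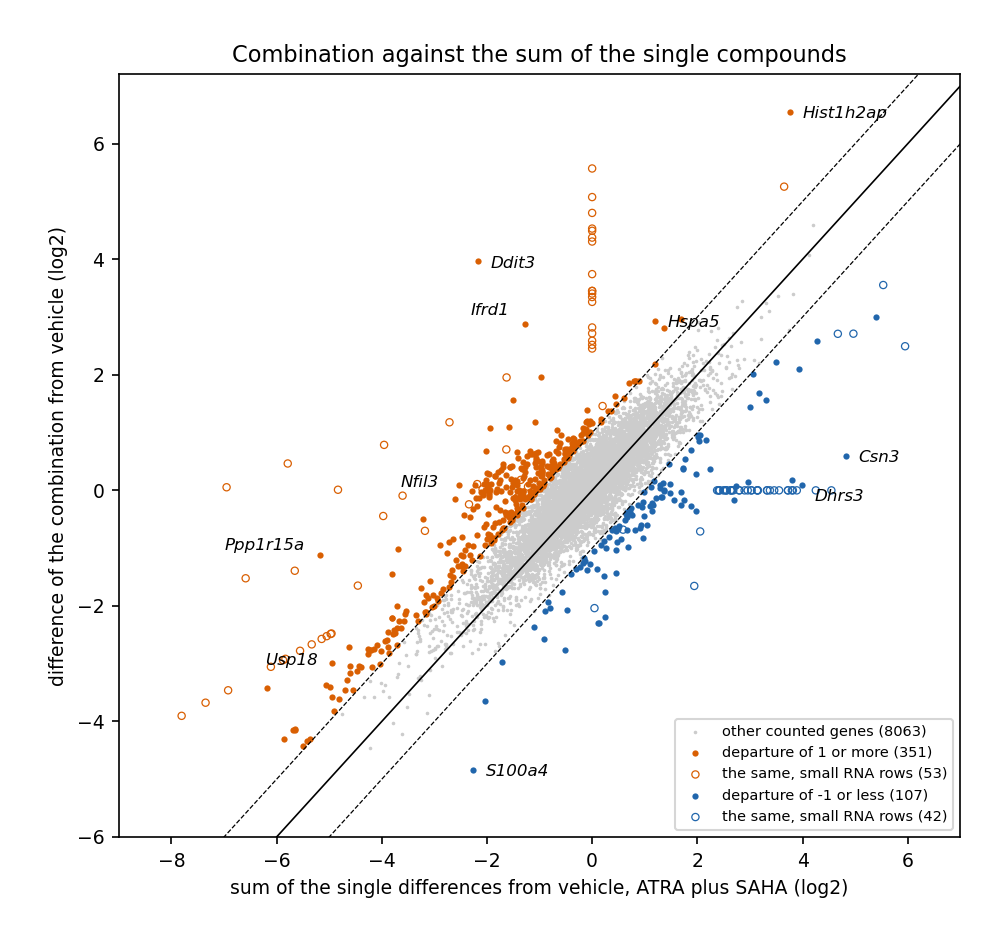
Each point is a counted gene, with the sum of the ATRA and SAHA differences from vehicle on the x axis and the difference of the combination from vehicle on the y axis, both in log2 of FPKM + 1; the solid line is additivity and the dashed lines mark departures of 1 and -1. Ddit3 stands farthest above the line among named genes, with a combination difference of 3.96, and most open circles lined up at 0 on either axis are small RNAs listed at 0 in 3 libraries.

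Small RNAs took a larger share of the members than of the counted rows. They made up 150 of the counted rows (1.74%) and 95 of the members (17.2%), with 53 positive and 42 negative. Of these 95 members, 65 were listed at 0 in 3 libraries, and 61 were microRNA precursor rows. The other 458 members, 351 positive and 107 negative, were 5.41% of 8466 counted rows, and all but 1 of them had a value above 0 in every library. The exception was the histone gene Hist1h2ap. The shapes below are given for these 458 members.

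The members were sorted by the shape of their 4 values into 10 classes, whose names describe the shape and nothing more. Here and in all counts of genes by 2-fold, the ratio is of FPKM + 1, and a gene that met several definitions went to the first in the order given. On the positive side, 23 genes were at least 2-fold higher in the combination library than in each of the other 3 ("combination highest"). In 117 genes the SAHA value was at least 2-fold below vehicle and the combination at least 2-fold above SAHA ("SAHA fall undone"), and 2 further genes had the same shape for ATRA only. In 150 genes both single compounds were below vehicle, by any amount, and the combination lay within 2-fold of the lower one ("overlapping falls"). In some of these ATRA alone was barely below vehicle, as in Hspa9, or the combination was the highest library, as in Nop58. The remaining 59 were of none of these shapes. On the negative side, 13 genes were lowest with the combination, 15 had a SAHA rise undone, 24 an ATRA rise undone, 28 had overlapping rises, and 27 were of none of these shapes. For comparison, ATRA alone was at least 2-fold above vehicle in 79 counted genes (0.917%) and below it in 103 (1.20%). SAHA alone was above in 679 (7.88%) and below in 1381 (16.0%), and the combination above in 954 (11.1%) and below in 1089 (12.6%). Against SAHA alone, the combination was higher in 262 (3.04%) and lower in 80 (0.929%), and against ATRA alone higher in 901 (10.5%) and lower in 1029 (11.9%). Some genes crossed over, with ATRA at least 2-fold up alone and 2-fold down on top of SAHA in 2 (0.0232%), or down alone and up on top of SAHA in 13 (0.151%). For SAHA alone and on top of ATRA these counts were 3 (0.0348%) and 16 (0.186%). The crossover counts include small RNAs, which were 1 of the 2, 8 of the 13, 1 of the 3 and 11 of the 16.

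**Figure D2:**
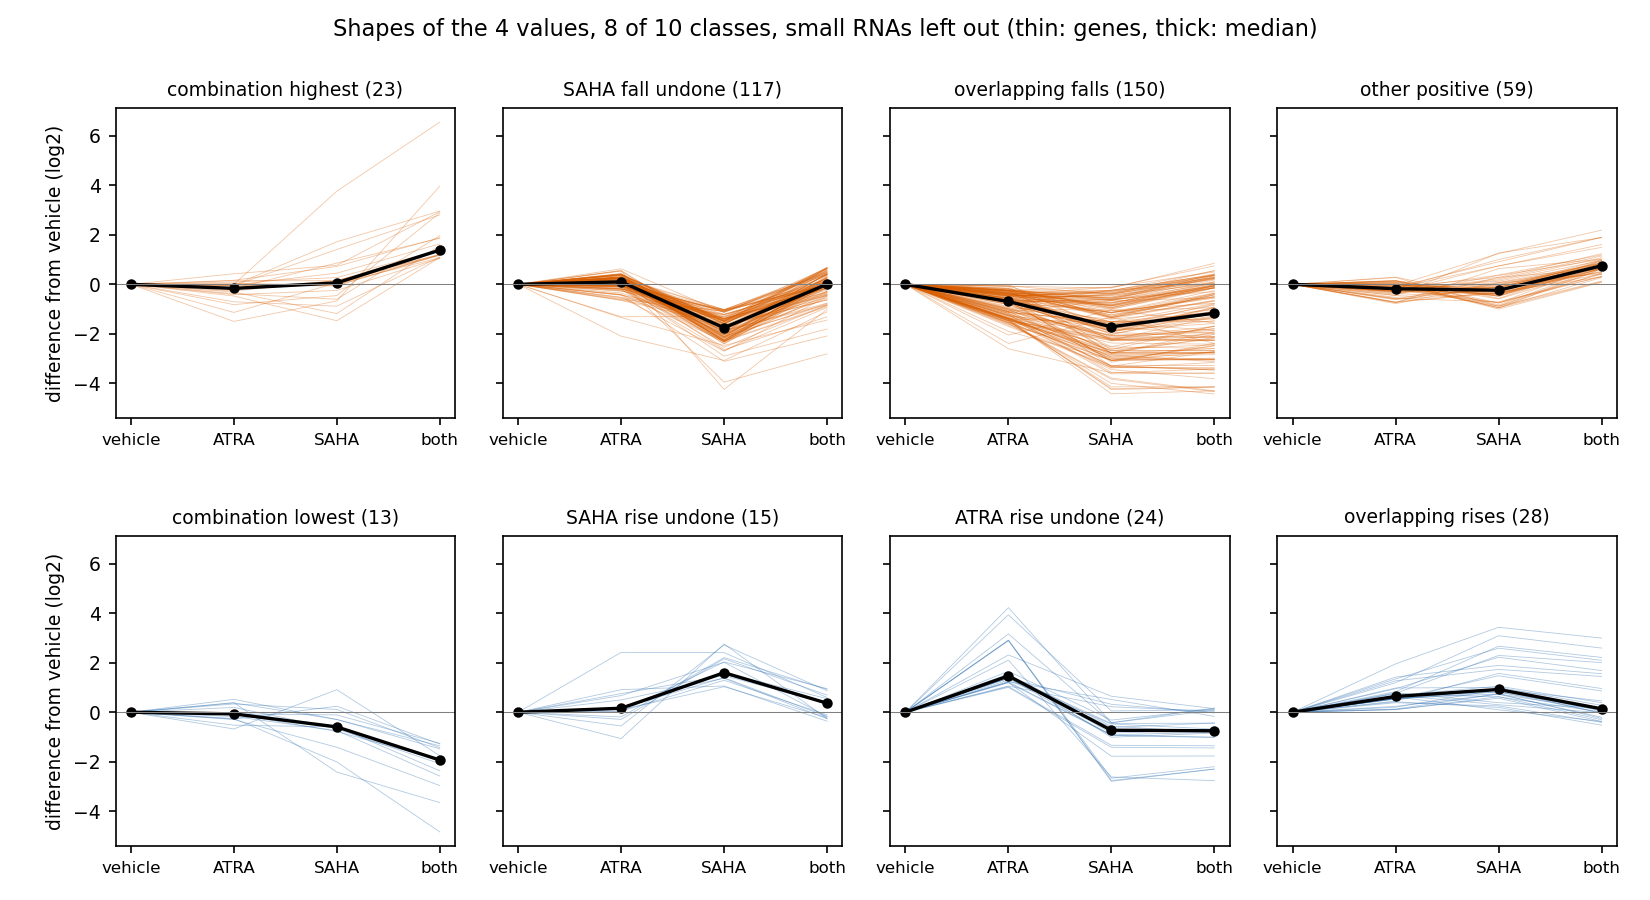
Each panel shows 1 of 8 shape classes, with the 4 libraries on the x axis and the difference from vehicle in log2 of FPKM + 1 on the y axis; thin lines are genes and the thick line is the median of the class, whose number of genes is in brackets. The median of the 117 genes with a SAHA fall undone was -1.76 with SAHA and 0.01 with both, while in the 23 genes highest in the combination it was 0.06 with SAHA and 1.38 with both.

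The largest departure of a gene that is not a small RNA belonged to Ddit3, which encodes CHOP, the transcription factor of prolonged endoplasmic reticulum (ER) stress (chromosome 10, 127290793 to 127311786, mm10). Ddit3 was at 25.4 FPKM in the vehicle library, 8.34 under ATRA, 15.6 under SAHA and 411 under both. Both single compounds were below vehicle, and the combination was 16.2-fold above vehicle, 26.4-fold above SAHA and 49.3-fold above ATRA, a departure of 6.13. The locus is shared with Mars, the methionyl-tRNA synthetase gene, which was at 8.56, 8.72, 3.37 and 2.91 FPKM and so was lowest where Ddit3 was highest. Reads of overlapping genes could not be separated here.

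Hspa5 encodes BiP, the main ER chaperone and the classical readout of the unfolded protein response (chromosome 2, 34772090 to 34776529). It was at 47.1 FPKM under vehicle, 63.6 under ATRA, 81.0 under SAHA and 367 under both, a 7.79-fold excess of the combination over vehicle. Here each compound alone was above vehicle, unlike for Ddit3, and the departure was 1.74. The 250 bases before the start sites of these genes are shown because they are the most abundant genes that stood out in the combination library. The sequences are from RefSeq (GRCm38.p6, the assembly also called mm10), 5′ to 3′ on the plus strand, chr10:127290543-127290792 for Ddit3 and chr2:34771840-34772089 for Hspa5. Capitals mark the AP-1 letters TGAGTCA, read here on the other strand, at position -242 of Ddit3, and the ER stress element, CCAAT and CCACG with 9 bases between them, at position -65 of Hspa5.
Ddit3: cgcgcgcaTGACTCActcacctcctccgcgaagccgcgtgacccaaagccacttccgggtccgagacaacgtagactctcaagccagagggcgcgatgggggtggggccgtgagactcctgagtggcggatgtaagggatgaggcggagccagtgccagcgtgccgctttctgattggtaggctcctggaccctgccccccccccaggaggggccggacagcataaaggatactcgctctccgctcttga
Hspa5: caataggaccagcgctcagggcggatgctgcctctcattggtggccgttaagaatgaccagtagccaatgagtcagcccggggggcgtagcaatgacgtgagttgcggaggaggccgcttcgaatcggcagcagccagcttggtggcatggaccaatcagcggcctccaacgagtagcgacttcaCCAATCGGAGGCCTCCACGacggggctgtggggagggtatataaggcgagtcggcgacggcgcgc

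Motif letters were searched on both strands in RefSeq windows from 250 bases before to 50 after each start site, which matched 6807 counted genes and 364 members. The ER stress element occurred in 10 of the 6807 (0.147%), and Hspa5 was the only member that held it. In the list of the unfolded protein response, 8 of the 30 other counted genes with a window held it too. The AP-1 letters occurred in 283 genes (4.16%) and in 14 of 281 positive members (4.98%), Ddit3 and Hspa5 among them, and in 8 of 83 negative members (9.64%). A match describes the letters only, not a bound site.

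The unfolded protein response and ER chaperone list had 41 counted genes. Of these, 4 (9.76%) had a departure of 1 or more and 0 of -1 or less, and the list median was -0.10. Over all counted genes these shares were 4.69% and 1.73%. The members were Ddit3, Hspa5, Ppp1r15a and Herpud1. Xbp1, the transcription factor of the IRE1 branch, was at 9.40, 10.4, 1.79 and 2.56 FPKM in vehicle, ATRA, SAHA and combination, a departure of 0.22. The departure of Hspa5 and Ddit3 was therefore not shared by most of the list. Herpud1, part of the machinery that removes misfolded ER proteins, was at 10.9, 10.1, 1.04 and 5.65 FPKM, with SAHA alone low.

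Ppp1r15a encodes GADD34, the phosphatase subunit that restarts translation after stress (chromosome 7, 45522917 to 45526268). It was at 27.0 FPKM under vehicle, 5.56 under ATRA, 2.32 under SAHA and 11.96 under both. Each compound alone was well below vehicle, the combination was 5.16-fold above SAHA and 2.15-fold above ATRA, and vehicle remained the highest library. Among members that are not small RNAs, only Ddit3 and Ifrd1 had a larger positive departure than its 4.06. Atf3, a stress-induced repressor of the same pathway, was at 3.19, 0.905, 3.36 and 8.49 FPKM (2.26), lowest with ATRA and highest with both.

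The ATF4 targets, genes of the response to amino acid shortage and of the integrated stress response, gave 10 members among 33 counted genes. All 10 were positive. They were 30.3% of the counted genes of the list, against 4.69% of all counted genes, and the list median was 0.66. Atf4 itself was at 103 FPKM under vehicle, 92.3 under ATRA, 20.3 under SAHA and 76.6 under both (2.02). Trib3, a pseudokinase, was at 11.7, 7.84, 0.946 and 8.03 FPKM (2.73), and Chac1, a glutathione-degrading enzyme, at 12.3, 9.05, 1.68 and 6.11 (1.81). In all 3 the SAHA library was at least 2-fold below the other 3, which lay within 2-fold of each other on the log2 scale of FPKM + 1. Nupr1, a stress-induced chromatin protein, was at 58.5, 86.5, 2.14 and 28.5 FPKM, a departure of 2.68 that turned to a shortfall of -1.65 FPKM when FPKM values were added instead of log ratios. Asns, asparagine synthetase, was just short of the mark at 65.0, 67.6, 19.3 and 40.4 FPKM (0.97). None of the 20 cytosolic aminoacyl-tRNA synthetases, many of them ATF4 targets, reached the mark (median 0.30, against 0.15 for all counted genes). The departure was above 0 in 18 of the 20. The leading ones, Aars (0.99), Yars (0.96), Tars (0.89) and Nars (0.88), came near the mark, with SAHA the lowest library in each. With 0.1 added in place of 1, Aars, at 1.06, and Yars passed it, and so did Asns, at 1.002.

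Within the windows, the C/EBP-ATF letters TTGCATCA occurred in 57 of 6807 counted genes (0.837%), in 9 of 281 positive members (3.20%) and in 0 of 83 negative members. In the ATF4 list, 5 of 8 members with a window held them, against 3 of 19 other counted genes of the list. These members were Atf3, Chac1, Nupr1, Slc1a4 and Jdp2. The first 4 are shown because they were described above or have a low SAHA value, with Herpud1 of the unfolded protein response list, which holds the same letters, and with the cAMP response letters TGACGTCA of Ppp1r15a (in 4.0% of all counted genes with a window). All are 5′ to 3′ on the gene's strand (GRCm38.p6), with the letters searched in capitals. The windows are chr7:45526269-45526300 (minus) for Ppp1r15a, chr1:191183416-191183463 (minus) for Atf3, chr2:119351029-119351076 (plus) for Chac1, chr8:94386297-94386344 (plus) for Herpud1, chr7:126625553-126625600 (minus) for Nupr1 and chr11:20332710-20332737 (minus) for Slc1a4, a neutral amino acid transporter at 10.9, 7.01, 4.08 and 11.1 FPKM.
Ppp1r15a: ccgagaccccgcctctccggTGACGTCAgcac
Atf3: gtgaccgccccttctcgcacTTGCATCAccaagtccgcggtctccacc
Chac1: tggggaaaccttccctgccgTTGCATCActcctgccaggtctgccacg
Herpud1: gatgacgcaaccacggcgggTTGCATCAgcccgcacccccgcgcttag
Nupr1: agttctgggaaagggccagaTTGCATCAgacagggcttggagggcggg
Slc1a4: cctccagcgtgcctcctgcgTTGCATCA

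**Figure D3:**
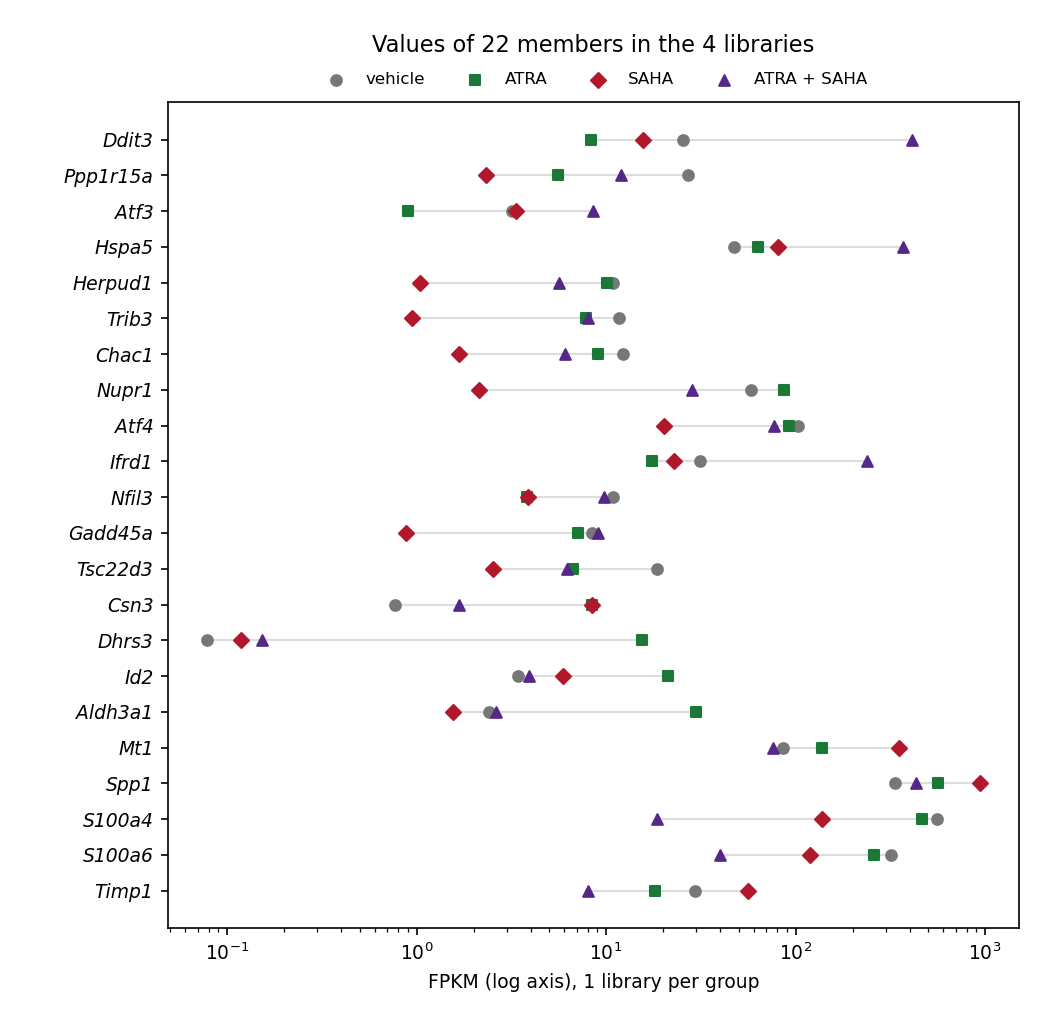
Points give the FPKM of 22 members in the 4 libraries on a log axis, 1 library per group, with grey lines from the lowest to the highest value. Ddit3, Ifrd1 and Hspa5 have the combination far to the right of the other 3 points, Trib3, Gadd45a and Nupr1 have SAHA far to the left, and Dhrs3, Aldh3a1 and Id2 have ATRA to the right.

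Several other genes were highest in the combination library. Ifrd1, a transcriptional coregulator induced by growth factors and stress (chromosome 12, 40203129 to 40223189), was at 31.5 FPKM under vehicle, 17.4 under ATRA, 22.7 under SAHA and 239 under both, 7.61-fold above vehicle (4.16). Dpep1, a dipeptidase of the cell surface, was at 1.97, 1.28, 0.954 and 10.6 FPKM (2.95). Both followed the order of Ddit3, below vehicle with either compound and above it with the pair. Hist1h2ap was listed at 0 with vehicle and ATRA and stood at 12.6 and 93.1 FPKM with SAHA and both. Its locus is that of Hist1h2ao, which was at 922, 1050, 174 and 841 FPKM, so the division of reads between these near-identical histone genes is uncertain. At lower levels, the ribosome biogenesis gene Rrp9 was at 4.79, 4.05, 4.91 and 11.2 FPKM, and Orc6, a subunit of the origin recognition complex, at 6.96, 7.19, 6.74 and 16.9.

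Host genes of small nucleolar RNAs carry the guides of ribosomal RNA modification in their introns. Of 10 counted, 3 (30%) were above the mark, against 4.69% of all counted genes, with a median of 0.53. Snhg5 was at 7.28 FPKM under vehicle, 4.97 under ATRA, 1.99 under SAHA and 16.5 under both (3.02). Snhg12 was at 4.78, 2.72, 1.20 and 8.24 (2.70), and Snhg1 at 3.02, 1.56, 0.345 and 3.30 (2.33, or 3.84 with 0.1 added in place of 1). SAHA alone was lowest in all 3 and the combination highest. The rows of Snhg12 and Snhg1 share their loci with other rows, and 7 of the 10 counted host genes do.

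The class with a SAHA fall undone consisted of 58 clustered histone genes and 59 others, and in 110 of the 117 the combination lay within 2-fold of vehicle. Clustered histone genes encode the core and linker histones made in S phase, and their messages mostly lack a poly(A) tail. Of 64 counted, 62 (96.9%) were positive members, against 4.69% of all counted genes, 0 were negative, and the median was 1.89. Hist1h3a was at 627 FPKM under vehicle, 684 under ATRA, 118 under SAHA and 623 under both (2.27), and Hist2h2ac at 370, 446, 75.7 and 455 (2.30). In both, 3 libraries were alike and SAHA alone was low. The 2 that missed the mark were Hist2h2bb at 0.93 and Hist3h2ba at 0.02, named here after their values were seen. Many of these genes are near-identical copies, so they are not separate observations.

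A SAHA fall undone was also the shape of 21 of 57 counted genes of G2 and mitosis. In all, 29 of the 57 (50.9%) were positive members, against 4.69% of all counted genes, and 0 were negative. The median was 1.002, and all 57 had a departure above 0. Departures as a whole were shifted upward, with a median of 0.15 over all counted genes. Centring moves every gene down by the same amount and took that overall median to -0.009. The list median then falls below the mark, and the lowest of the 57, at 0.01 before centring, falls below 0. Mki67, the Ki-67 proliferation antigen, was at 27.2 FPKM under vehicle, 23.4 under ATRA, 3.39 under SAHA and 13.7 under both (1.95). Hmmr, a spindle protein, was at 8.53, 9.17, 2.22 and 9.74 (1.64), and Smc4, a condensin subunit, at 16.2, 16.3, 3.30 and 11.96 (1.58). The SAHA library was the lowest of the 4 in all 3, and the combination was close to vehicle for Hmmr and below it for Mki67. Tpx2, which organises the spindle, was at 6.77, 7.23, 2.58 and 10.1 FPKM (1.54). By contrast 2 of 42 counted genes of G1/S and DNA replication (4.76%) were members, a share near that of all counted genes, with a median of 0.23. They were Pold2, a DNA polymerase subunit, and Orc6.

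The cell cycle homology letters TTTGAA, found near the start of many mitotic genes, occurred in the windows of 969 of 6807 counted genes (14.2%). They occurred in 46 of 99 genes with a SAHA fall undone (46.5%), among them 25 of 54 histone genes. Within the G2/M list, 18 of 24 members and 18 of 25 other counted genes held them, a share that was nearly the same with and without a departure of 1. Among genes of this shape in neither list, 7 of 28 did (25%). The matches that lie before the start site in leading mitotic members are shown on the gene's strand (GRCm38.p6), at chr7:135716470-135716515 (minus) for Mki67, chr4:118437344-118437381 (minus) for Cdc20, chr7:80294426-80294451 (plus) for Prc1 and chr11:99024343-99024388 (minus) for Top2a. Capitals mark the letters searched.
Mki67: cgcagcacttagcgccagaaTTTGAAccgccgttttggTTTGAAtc
Cdc20: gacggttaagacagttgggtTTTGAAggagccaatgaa
Prc1: tggcaccgcctctggctcggTTTGAA
Top2a: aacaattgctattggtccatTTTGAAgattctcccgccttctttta

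Nfil3 encodes a repressor of the D-box genes of the circadian clock and of cytokine genes (chromosome 13, 52967209 to 52981039). It was at 10.9 FPKM under vehicle, 3.81 under ATRA, 3.86 under SAHA and 9.70 under both. The single compounds gave nearly the same low value, and the combination was within 2-fold of vehicle (2.45). Arntl, the clock gene also called Bmal1, was at 3.28, 1.04, 5.54 and 6.97 FPKM (1.36), low with ATRA alone. The other gene placed in the class of an ATRA fall undone was Ina, the gene of a neuronal intermediate filament, at 4.41, 0.827, 3.12 and 3.999 FPKM (1.85). Dbp, an activator at D-boxes, had a negative departure, at 1.36, 5.69, 0.317 and 0.462 FPKM (-1.35). Nfil3, Arntl and Dbp were the 3 members among 13 counted clock genes, whose median was 0.06. The 2 positive ones were 15.4% of the list and the 1 negative 7.69%. Among all counted genes the shares were 4.69% and 1.73%. Dbp passed the filter only through ATRA, the library whose high value also makes its departure negative. It therefore adds no support to the negative share. The D-box letters TTATGTAA occurred in 42 of 6807 genes with a window (0.617%) and in 7 of 281 positive members, of which 4 were histone genes.

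Gadd45a, a DNA damage and stress gene, showed the same low SAHA value, at 8.38 FPKM under vehicle, 7.12 under ATRA, 0.876 under SAHA and 9.06 under both (2.63). Of 24 counted p53 targets, 3 (12.5%) were positive members, against 4.69% of all counted genes, and 0 negative (median 0.25). Besides Gadd45a they were Pmaip1, which encodes the BH3-only protein NOXA, at 3.28, 1.91, 2.20 and 4.53 FPKM, and the nuclease gene Aen at 4.502, 2.996, 1.74 and 3.93. Cdkn1a, the p53 target that encodes p21, was at 3.35, 3.15, 3.95 and 3.58 FPKM, a departure of -0.04.

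Immediate early genes, which respond to growth factors and stress within minutes to hours, went in both directions. Of 38 counted, 6 (15.8%) were positive members and 3 (7.89%) negative, with a median of 0.13. Over all counted genes the shares were 4.69% and 1.73%. The positive ones included Gadd45a, Atf3 and Myc, which is described with the overlapping falls. Dusp2, a phosphatase of MAP kinases, was at 0.956 FPKM under vehicle, 1.19 under ATRA, 4.15 under SAHA and 0.733 under both (-1.73, or -2.64 with 0.1 added in place of 1), high with SAHA alone. Dusp2 passed the filter only through SAHA, the library whose high value also makes its departure negative. It therefore adds no support to the negative share. Klf10, a TGF-β-induced transcription factor, was at 5.25, 9.74, 7.01 and 3.88 (-1.50), highest with ATRA and lowest with both.

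In some genes with a low SAHA value the combination lay only part of the way back to vehicle. Mthfd2, a mitochondrial folate enzyme and ATF4 target, was at 24.2 FPKM under vehicle, 22.2 under ATRA, 2.38 under SAHA and 6.23 under both (1.22). Serpinh1, the collagen chaperone HSP47, was at 80.3, 85.7, 4.25 and 10.6 (1.05), and its departure was 0.89, short of the mark, after centring. Both combination values were more than 2-fold above SAHA and more than 2-fold below vehicle.

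**Figure D4:**
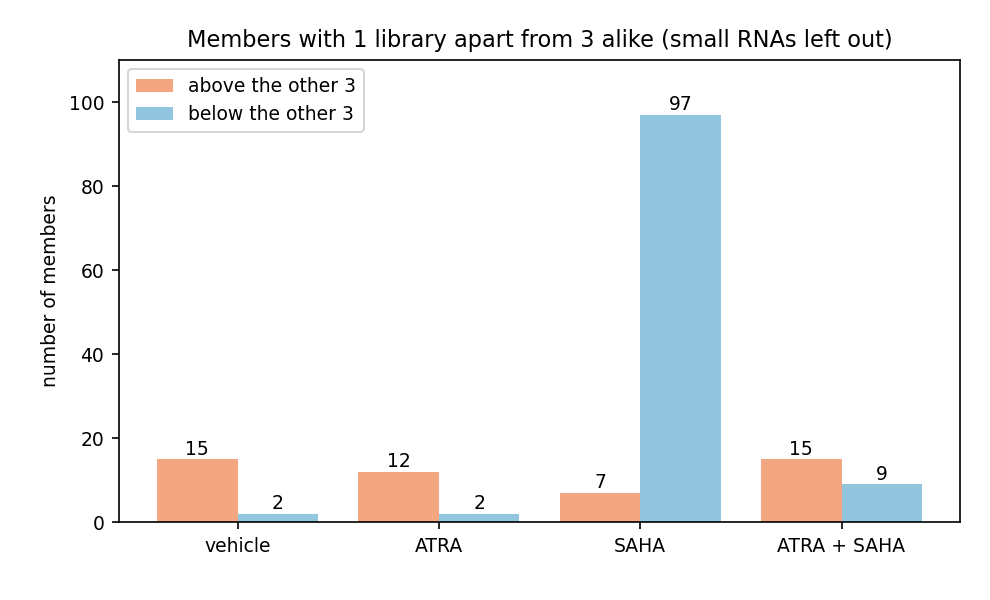
Bars give the number of members, small RNAs left out, in which 3 libraries lay within 2-fold of each other and the remaining 1 stood at least 2-fold above (left bar) or below (right bar) all of them, by library. In 97 members SAHA stood below the other 3, against 9 for the combination and 2 each for vehicle and ATRA.

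In 159 of the 458 members 1 library stood apart from 3 that were alike. In 97 of them it was the SAHA library, below the rest, and all 97 were in the class with a SAHA fall undone. Such a departure rests on 1 library: with SAHA alone set aside, the other 3 libraries show less than a 2-fold difference, and with 1 library per group the value cannot be recomputed without it. Among all 8466 counted rows that are not small RNAs, 107 had SAHA alone below the rest. The combination stood alone above the rest in 15 members, among them Ifrd1, Hspa5 and Dpep1, and below in 9. ATRA stood alone above the rest in 12, among them Dhrs3, Id2 and Aldh3a1.

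Interferon-stimulated genes, the antiviral programme switched on by interferon receptors, were 25 of the 150 genes with overlapping falls. Of 34 counted, these 25 (73.5%) were positive members, against 4.69% of all counted genes, and 0 were negative. The median was 1.28, and 0.49 over the genes of the list that averaged 5 FPKM or more. Usp18, which shuts off the interferon receptor, was at 10.1 FPKM under vehicle, 1.98 under ATRA, 0.336 under SAHA and 0.405 under both (1.97). Irf7, a transcription factor of the interferon response, was at 11.3, 3.20, 0.462 and 0.868 (1.90). ATRA alone was between vehicle and SAHA in each, and the combination was near the SAHA value. Ifit1, an antiviral RNA-binding protein, was at 9.85, 2.35, 0.0517 and 0.0530 FPKM (1.70). Usp18 and Ifit1 averaged below 1 FPKM in the libraries other than vehicle, so they passed the filter only through the library where they were high. Among the 458 members that are not small RNAs, 53 passed only through their highest library. For such genes the list counts are no separate support.

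The lower end of the scale bears on this shape. Over the 150 genes the median difference from vehicle was -0.69 with ATRA, -1.72 with SAHA and -1.17 with both, and 66 genes were below 1 FPKM with SAHA. For 69 of the 164 genes of the class with small RNAs, the sum of the single differences asked for a level below 0 FPKM, which no value can reach. For such genes a positive departure was the only possible value. Bst2, which tethers viruses to the cell surface, was well above 0 in every library, at 27.6, 16.1, 7.65 and 15.4 FPKM (1.67). Tor3a, an interferon-inducible ER ATPase gene, was at 8.28, 3.54, 1.81 and 3.40 (1.68). In both, the combination was close to ATRA and about 2-fold above SAHA.

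The letters of the interferon-stimulated response element, GAAA and GAAACT with 2 bases between them, occurred in the windows of 32 of 6807 counted genes (0.470%) and of 18 of 115 genes with overlapping falls (15.7%). Outside the interferon list they occurred in 9 of 95 genes of this shape. The list was not a full set of interferon-inducible genes, and whether these 9 respond to interferon was not tested. Within the list, 9 of 20 members and 1 of 9 other counted genes with a window held them. The leading members are shown on the gene's strand (GRCm38.p6), with the letters in capitals on whichever strand they read. The positions are chr19:34640763-34640814 (plus) for Ifit1, chr8:71537571-71537622 (minus) for Bst2, chr3:142559977-142560028 (plus) for Gbp3, chr5:120907526-120907565 (minus) for Oas1a and chr19:34583351-34583402 (plus) for Ifit3.
Ifit1: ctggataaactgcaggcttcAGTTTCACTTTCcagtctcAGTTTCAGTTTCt
Bst2: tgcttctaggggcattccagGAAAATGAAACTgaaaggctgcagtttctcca
Gbp3: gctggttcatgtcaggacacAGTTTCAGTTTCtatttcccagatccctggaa
Oas1a: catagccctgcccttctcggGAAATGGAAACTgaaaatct
Ifit3: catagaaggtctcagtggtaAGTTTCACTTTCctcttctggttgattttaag

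Ly6a, which encodes the stem cell antigen Sca-1 and is inducible by interferon, was at 28.2 FPKM under vehicle, 9.36 under ATRA, 0.819 under SAHA and 0.352 under both (1.06). Its combination value was the lowest of the 4. The sum of the single differences asked for a level below the lowest the scale allows, so a positive departure was the only possible value. After centring the departure was short of the mark. Ly6a was 1 of 4 Ly6 genes in a run of members on chromosome 15, between 74979812 and 75111949.

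Other genes with overlapping falls were well above 0 in every library. Myc, the growth-promoting transcription factor, was at 44.7 FPKM under vehicle, 26.5 under ATRA, 6.97 under SAHA and 13.1 under both (1.55). Of 41 counted ribosome biogenesis genes, many of them MYC targets, 8 (19.5%) were positive members and 1 (2.44%) negative, with a median of 0.64. Among all counted genes the shares were 4.69% and 1.73%. Nop58, a core box C/D protein, was at 25.4, 15.7, 14.6 and 27.3 FPKM (1.52), and its partner Nop56 at 29.5, 16.6, 3.48 and 5.88 (1.41). The combination was close to vehicle for Nop58 and close to SAHA for Nop56, although the departures were alike. Both rows share their loci with other rows. None of the 74 counted cytosolic ribosomal protein genes was a member (median 0.30).

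The cytokine genes Csf1, at 14.3, 6.09, 1.38 and 2.34 FPKM, and Ccl2, at 7.81, 3.47, 0.955 and 1.52, were the 2 members among 14 counted NF-κB and inflammatory genes. Both were positive (14.3% of the list, against 4.69% of all counted genes). Of 36 counted splicing factor and RNA-binding protein genes, 5 (13.9%) were positive members, among them Rbm39 at 14.9, 11.1, 7.203 and 14.3 FPKM. The 59 genes of no set positive shape had small single differences, with medians of -0.18 for ATRA and -0.24 for SAHA, and 0.75 for the combination. With 1 small RNA added, the combination was the highest of the 4 libraries in all 60. Got1, the cytosolic aspartate aminotransferase, was at 13.1 FPKM under vehicle, 11.9 under ATRA, 9.28 under SAHA and 26.6 under both (1.56), 2.02-fold above vehicle. Zfand2a, an arsenite- and proteasome-stress-induced gene, was at 6.17, 4.24, 5.07 and 11.99 (1.55).

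On the negative side the largest departure of a gene that is not a small RNA was that of Csn3, the kappa-casein gene (chromosome 5, 87908588 to 87979351). Csn3 was at 0.768 FPKM under vehicle, 8.46 under ATRA, 8.39 under SAHA and 1.68 under both. ATRA alone was 11.01-fold and SAHA alone 10.9-fold above vehicle, and the combination was 5.05-fold below ATRA and 5.01-fold below SAHA (-4.23). It was the mirror image of Nfil3, in which each single compound was low. The row shares its locus with 1700066N21Rik, which was at most 0.0337 FPKM.

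Genes lowest with the combination included a run of S100 genes, small calcium-binding proteins tied to motility. S100a4 (chromosome 3, 90603770 to 90606045) was at 557 FPKM under vehicle, 467 under ATRA, 138 under SAHA and 18.6 under both, 7.42-fold below SAHA and 25.2-fold below ATRA (-2.57). S100a6 was at 318, 259, 119 and 39.9 FPKM (-1.25), and S100a11 at 104, 72.2, 68.7 and 19.4 (-1.25). In all 3 the order was vehicle, ATRA, SAHA, combination. Between positions 90511034 and 90614414 of chromosome 3, all 4 counted genes, S100a1, S100a13, S100a4 and S100a6, were negative members.

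Timp1, an inhibitor of matrix metalloproteinases, was at 29.4 FPKM under vehicle, 18.0 under ATRA, 56.2 under SAHA and 7.996 under both (-1.99), so that SAHA alone was the highest library and the combination the lowest. Its row shares a locus with other rows. Itga3, an integrin subunit for laminin, was at 23.97, 30.5, 25.98 and 8.25 FPKM (-1.88), 3 alike and the combination low. Sfpq, a splicing and paraspeckle protein, was at 14.01, 12.3, 7.99 and 1.52 (-1.67). The tight junction gene Cldn6 was at 43.8, 57.7, 7.39 and 2.57 (-1.62), already low with SAHA. Of 21 counted mesenchymal and matrix genes, 3 (14.3%) were negative members and 1 (4.76%), Serpinh1, positive before centring, with a median of 0.15. Among all counted genes the shares were 1.73% negative and 4.69% positive.

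A SAHA value above vehicle that was not seen with both compounds was found for 15 genes. Mt1, a metallothionein that binds zinc and copper (chromosome 8, 94179089 to 94180327), was at 86.3 FPKM under vehicle, 138 under ATRA, 353 under SAHA and 76.4 under both, 4.62-fold below SAHA (-2.87). Its neighbours Mt2, at 136.9, 147.9, 203.3 and 105.5 FPKM, and Mt4, at 2.12, 3.90, 4.5001 and 2.36, were also negative members. SAHA was the highest library for all 3 metallothioneins. Spp1, which encodes the secreted protein osteopontin, was at 336, 566, 939 and 433 FPKM (-1.87), and Tinagl1, a basement membrane protein, at 24.2, 46.5, 51.7 and 18.6 (-2.34). Lars2, the mitochondrial leucyl-tRNA synthetase, was at 6.38, 2.53, 49.0 and 5.16 (-1.96), and Uqcrh, a complex III subunit, at 34.9, 49.7, 91.9 and 28.9 (-2.14). Uqcrh was the only member among 78 counted nuclear-encoded respiratory chain genes.

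Besides Csn3, which was placed with the SAHA rises, an ATRA value above vehicle that was not seen with both compounds was found for 24 genes. Dhrs3, a retinaldehyde reductase and direct retinoic acid receptor target (chromosome 4, 144892827 to 144927645), was at 0.0780 FPKM under vehicle, 15.5 under ATRA, 0.119 under SAHA and 0.153 under both. ATRA alone was 199-fold above vehicle and 101-fold above the combination (-3.90, or -6.25 with 0.1 added in place of 1), ratios that rest on the few fragments of the other libraries. Tgm2, the tissue transglutaminase, was at 3.98, 14.7, 3.0005 and 4.45 FPKM (-1.21), and Nrip1, a nuclear receptor corepressor induced by retinoids, at 2.97, 5.46, 1.51 and 0.921 (-1.09). These were the 3 members (33.3%) among the 9 counted of 30 retinoic acid receptor targets, all negative, with a median of -0.28. Of all counted genes 1.73% were negative members. Dhrs3 passed the filter only through ATRA, the library whose high value also makes its departure negative. It therefore adds no support to that share. Rarb, another classical target, was below the filter at 0.747, 1.11, 0.344 and 0.367 FPKM. H1f0, a linker histone gene commonly raised by deacetylase inhibitors, was at 30.2, 26.4, 126 and 164 FPKM. The combination library thus had the H1f0 level of the SAHA library and a Dhrs3 level near vehicle; whether ATRA reached its receptor in that culture was not tested.

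Id2, which encodes an inhibitor of basic helix-loop-helix factors, was at 3.44 FPKM under vehicle, 21.1 under ATRA, 5.95 under SAHA and 3.92 under both (-2.81). Id1 was at 4.58, 13.4, 2.65 and 3.13 (-1.19). ATRA alone was high for both, and the other 3 libraries were alike. Of 17 counted Id genes and TGF-β or BMP targets, 3 (17.6%, against 1.73% of all counted genes) were negative members and 0 positive (median -0.34). Aldh3a1, an aldehyde dehydrogenase, was at 2.42, 29.7, 1.55 and 2.62 FPKM (-2.66).

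The 5 counted proliferin genes, Prl2c1 to Prl2c5, placental growth factors of the prolactin family, were all negative members. Prl2c2 was at 6.46 FPKM under vehicle, 54.3 under ATRA, 0.103 under SAHA and 0.520 under both (-2.43). With 0.1 added in place of 1 the departure was -1.44, and as a ratio of FPKM ATRA was 8.402-fold above vehicle alone and 5.04-fold above SAHA on top of it. SAHA was near 0 with or without ATRA, and ATRA alone was high. Their sequences are near-identical, Prl2c3 and Prl2c4 share 1 locus, and the division of reads among them is uncertain, so they count as 1 observation. In the 24 genes with an ATRA rise undone, the combination lay within 1 of SAHA in all 24 and within 1 of vehicle in 15, both in log2 of FPKM + 1, and SAHA was below 1 FPKM in 15.

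Overlapping rises held 28 genes whose single compounds were both above vehicle. Ckb, the brain creatine kinase, was at 7.73 FPKM under vehicle, 32.9 under ATRA, 93.3 under SAHA and 68.7 under both (-2.39), 8.88-fold above vehicle with both. Gsta4, a glutathione transferase for lipid peroxidation products, was at 1.05, 3.68, 16.4 and 11.3 FPKM (-1.69), and Srxn1, sulfiredoxin, at 2.33, 5.44, 14.5 and 9.69 (-1.49). The combination was above vehicle but below SAHA in each. Of 33 counted NRF2 antioxidant genes, 5 (15.2%) were negative members and 1 (3.03%) positive, with a median of -0.49. Among all counted genes the shares were 1.73% and 4.69%. Besides Aldh3a1, Gsta4 and Srxn1 the negative ones were Gsr, glutathione reductase, at 7.65, 21.6, 3.53 and 3.25 FPKM, and Gstp1 at 64.8, 130, 75.7 and 58.9. Gstp1 and Gstp2 are near-identical neighbours. The positive one was Hmox1, haem oxygenase, at 1.85, 2.01, 1.28 and 4.01 FPKM, highest with both, and it was short of the mark after centring.

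The 27 negative genes of no set shape had the combination as the lowest library, with 1 small RNA added in all 28. Insig1, which holds SREBP in the ER when sterols suffice, was at 18.8 FPKM under vehicle, 36.1 under ATRA, 18.9 under SAHA and 11.5 under both (-1.57). Acsl4, an acyl-CoA synthetase for polyunsaturated fatty acids, was at 4.46, 9.01, 5.14 and 2.62 (-1.64). ATRA alone was high for both and the combination lowest. Of 34 counted cholesterol and fatty acid synthesis genes, 2 (5.88%, against 1.73% of all counted genes) were negative members and 0 positive (median -0.33). Besides Insig1 the other was Acly, ATP citrate lyase, at 15.8, 18.8, 26.8 and 13.6 FPKM.

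**Figure D5:**
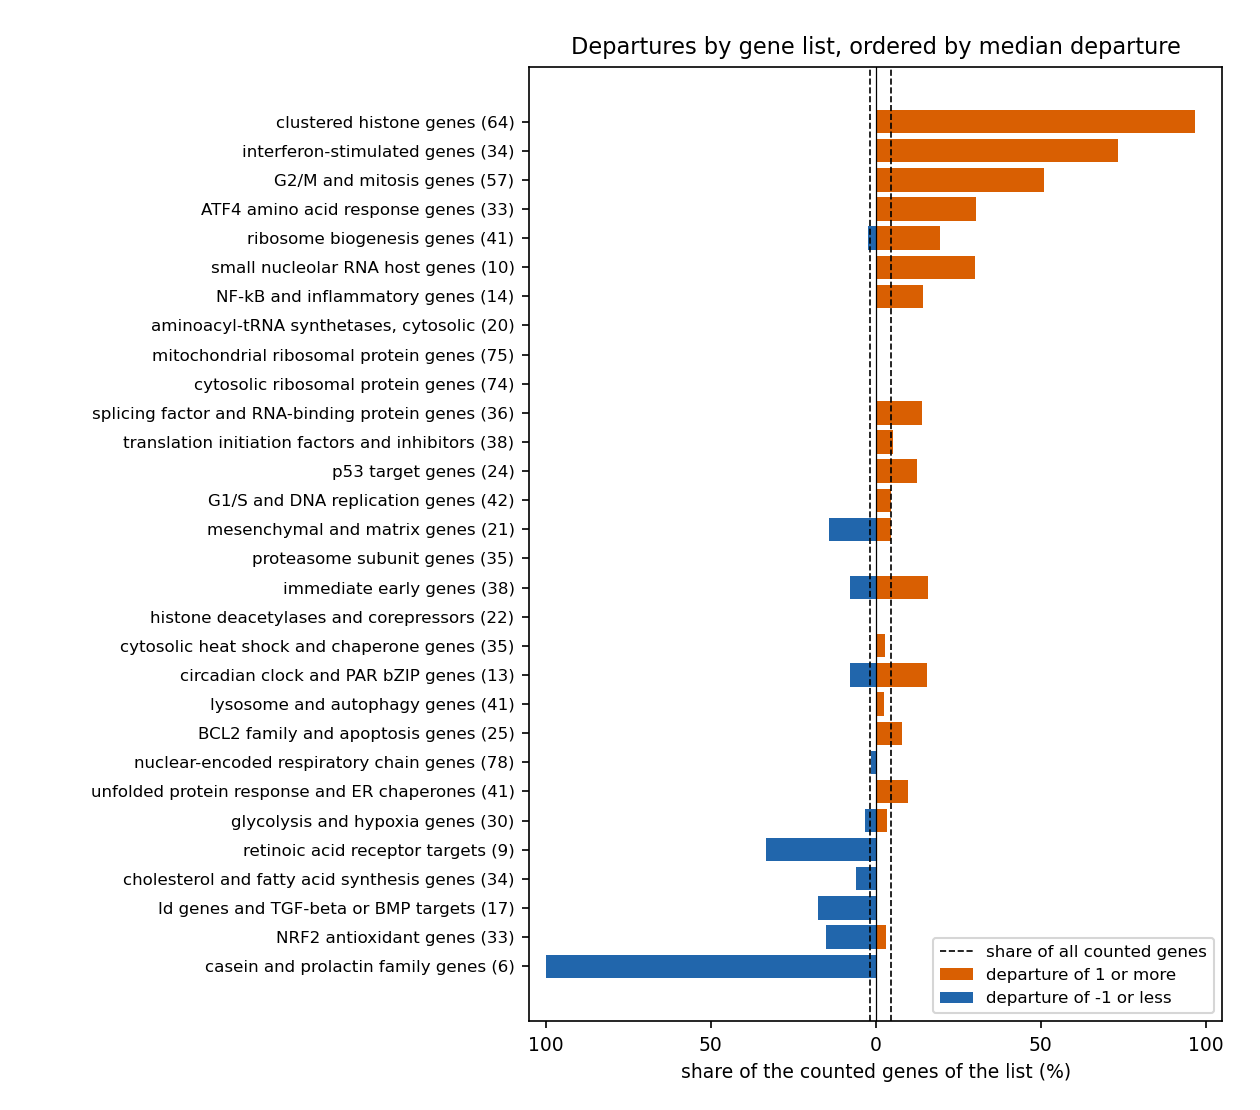
Bars give the share of the counted genes of each list with a departure of 1 or more (right, orange) or -1 or less (left, blue), for lists with at least 5 counted genes ordered by their median departure, with the number counted in brackets; dashed lines are the shares of all counted genes. Clustered histone, interferon-stimulated and G2/M genes lie far to the right of the 4.69% line, and the 6 casein and prolactin family genes are all on the left.

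Members of 1 direction also lay side by side on the chromosomes. In all, 10 runs of 3 or more positive members, each within 100000 bases of the last, held 86 members, and 2 runs of negative members held 7. Histone genes formed 3 runs on chromosome 13, with 29, 17 and 5 members, and 1 run of 8 on chromosome 3, with no other counted gene within these runs, small RNAs left out. The interferon-inducible Ifi200 genes of chromosome 1, from 173723428 to 174031755, formed a run of 7, and the Oas genes of chromosome 5 a run of 5 of 6 counted. These runs are families of related genes whose reads can be shared, and 145 of the 553 members (26.2%) share a locus with another row, against 18.8% of counted genes.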

How the data were processed

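RNA was sequenced as 4 libraries, 1 per group, on a HiSeq 2500 after ribosomal RNA depletion, per the labels. Whether a library pooled several cultures was not stated. The values are FPKM, deposited by the authors, who per the submitters' processing notes used Trimmomatic 0.32, Cuffdiff and mm10. Aligner, annotation and strand handling were not stated in any source used. FPKM hides depth. The smallest steps between low values of single-transcript genes gave 97.5, 97.2, 97.8 and 104 fragments per FPKM and kilobase for vehicle, ATRA, SAHA and combination.

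Departures were computed on log2(FPKM + 1) over genes averaging 1 FPKM or more, with Python 3.11.15, numpy 2.4.6 and pandas 2.3.3, and the code was tested on simulated data. With 1 library per group no test exists. A fold is a ratio of FPKM. The value in brackets after a gene's levels is its departure. Small RNAs were taken by RefSeq type or symbol, and 27 symbols that a spreadsheet had turned into dates were restored. Promoter windows and sequences are from RefSeq (GRCm38.p6). The table's starts were raised by 1 to count from 1.

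The members and the 37 gene lists were chosen with earlier results of these data known. Named genes are the 6 farthest from 0 in each shape class (3 in classes under 10) with at least 5 FPKM in the highest library, up to 4 leading genes of a list, a fixed set of treatment and identity genes, and those next to the marks. Predicted, small, joined and pseudogene rows were left out of the class part. S100a1, S100a6, S100a11, S100a13, Mt2, Mt4, Slc1a4, Gstp1, Rrp9, Cdc20, Prc1, Top2a, Gbp3, Oas1a, Ifit3, Prl2c3, Prl2c5, Gm20594, Hist1h2ao, Mars, Mthfd2, Ly6a, Hmox1, Ina and Jdp2 were named after their values were seen. Some members counted in the lists are not reported here by name. Alternatives were another pseudocount, filter and mark, centring, addition of FPKM differences, and leaving out small RNAs or shared loci.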

Additional observations from a re-analysis of the deposited data

Results flagged for a closer look

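Genes are given here when one compound's difference was at least 2-fold in one direction on its own and at least 2-fold in the opposite direction in the presence of the other compound. All differences are in log2 of FPKM + 1. With 1 library per group, none of these differences between conditions was tested. The same values chose the genes.

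ATRA lowered a gene alone and raised it on top of SAHA in 13 of 8616 counted genes (0.151%), of which 8 were small RNAs. For Ddit3 the ATRA difference was -1.50 without SAHA and 4.64 with it. For Ppp1r15a the 2 values were -2.10 and 1.97, and for Atf3, the stress-induced repressor, -1.14 and 1.12. The repressor gene Nfil3 gave -1.31 and 1.14, and Tsc22d3, the glucocorticoid-induced leucine zipper gene, -1.34 and 1.03. The opposite order was found in 2 genes (0.0232%), 1 of them a small RNA. The other was Csn3, the casein gene, with 2.42 without SAHA and -1.81 with it.

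SAHA lowered a gene alone and raised it on top of ATRA in 16 counted genes (0.186%), of which 11 were small RNAs. The SAHA difference of Snhg5, a small nucleolar RNA host gene, was -1.47 without ATRA and 1.55 with it. Snhg12 gave -1.39 and 1.31, and the RIKEN transcript 5430416N02Rik -1.18 and 1.88. Nfil3 gave -1.29 and 1.15, and the selenoprotein gene Sepw1 -1.08 and 1.01. The opposite order was found in 3 genes (0.0348%), 1 of them a small RNA. Csn3 gave 2.41 without ATRA and -1.82 with it, and Tinagl1, the basement membrane gene, 1.06 and -1.27. Tsc22d3, Sepw1 and 5430416N02Rik were chosen after their values were seen. Csn3 and Nfil3 were the genes, small RNAs apart, that crossed over for both compounds.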

How the results depend on the processing

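No paired analysis was possible because each group was 1 library, and for the same reason no replicate could be left out. The counts of 404 positive and 149 negative members became 737 and 275 with a pseudocount of 0.1, 209 and 68 with a mean of at least 5 FPKM, and 160 and 77 at a mark of 1.5. No gene that stayed a member in another setting changed its sign. A pseudocount of 0.1 gave 69 genes highest in the combination, 249 with a SAHA fall undone, 11 with an ATRA fall undone, 262 overlapping falls, 146 other positive genes, 45 lowest in the combination, 64 overlapping rises and 71 other negative genes. A mean of at least 5 FPKM gave 20, 1, 58 and 27 genes for combination highest, ATRA fall undone, overlapping falls and other positive, and 9, 14, 18 and 16 for SAHA rise undone, ATRA rise undone, overlapping rises and other negative. Without small RNAs combination highest was 23, ATRA fall undone 2, SAHA rise undone 15 and ATRA rise undone 24. Without shared loci these were 23, 1, 16 and 26. Centring gave 31 other positive genes, 54 overlapping rises and 55 other negative genes. The median of the interferon list was 0.49 at 5 FPKM, that of the Id and TGF-β list -0.998, and that of the casein and prolactin list -1.17 with no filter. With FPKM differences added, Nupr1 reversed to -1.65 FPKM, the only named gene of 158 to do so. After centring, Clk1 (0.89), Hnrnpc (0.95), Hspa9 (0.85) and Serpinh1 (0.89) of these 158 were short of the mark. Centring moves every gene down by the same amount. Hmox1, Ly6a, Jdp2, Rrs1 and Med10, which are outside the 158, therefore fall short of it too. Depth limits genes near 0: 125 members were below 5 FPKM in their highest library. In all, 123 members passed the filter only through 1 library, and 53 of these were not small RNAs.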

Other observations

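Several gene groups had only a few members or none, while 4.69% of all counted genes were positive. Of 38 counted translation initiation genes 2 were positive (5.26%), of 35 heat shock genes 1 (2.86%), of 41 lysosome genes 1 (2.44%) and of 25 BCL2 family genes 2 (8%). Shares that rest on 1 or 2 genes show neither an excess nor a shortage. Eif5, a GTPase activator of start-codon selection, was at 27.7 FPKM under vehicle, 16.4 under ATRA, 8.47 under SAHA and 12.2 under both. Bid, a BH3-only death gene, was at 5.13, 3.10, 2.70 and 4.77 FPKM. SAHA alone was the lowest library for both. Hspa9, a mitochondrial chaperone, was at 74.6, 73.5, 19.2 and 39.0 FPKM (departure 1.01, or 0.85 after centring), with SAHA lowest. Atg12, an autophagy conjugation factor, was at 3.68, 3.58, 14.4 and 35.4 FPKM (1.27), above vehicle with SAHA and more so with both. Of 30 counted glycolysis and hypoxia genes 1 was positive and 1 negative (3.33% each). Ndrg1, a hypoxia-induced growth regulator, was at 11.3, 5.15, 3.63 and 5.03 FPKM (1.38), and Slc16a3, the lactate exporter MCT4, at 10.5, 13.8, 3.85 and 1.72 (-1.20). Vehicle was the highest library for Ndrg1, and the combination the lowest for Slc16a3. Of the 75 mitochondrial ribosomal protein genes, the 35 proteasome genes and the 22 histone deacetylase and corepressor genes counted, 0 were members, with medians of 0.30, 0.14 and 0.11. Ccnd1, the cyclin D1 gene, was at 37.0 FPKM under vehicle, 45.3 under ATRA, 0.674 under SAHA and 0.723 under both, and its departure was -0.24.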
